A study of Mus musculus with 3 samples.

Results

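Sterol efflux and its control by the liver X receptor (LXR) are represented here by 9 genes, which are Abca1, Abcg1, Abcg5, Abcg8, Srebf1, Mylip, Lpcat3, Scarb1 and Pltp. They were chosen by name as known genes of sterol transport and LXR targets, with earlier results of these data known, and all 9 were found among the 22367 protein-coding genes of GENCODE release M1, the mouse annotation on the NCBI37/mm9 genome. Binding of the retinoid X receptor alpha (RXRα) and of the retinoic acid receptor alpha (RARα) was read within 10 kb of each gene start and over each gene body.

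Liver chromatin was used from C57BL/6 mice, males of the wild type that the labels give as 3 months old, and no genotype change or treatment was named for any library. The 3 groups were compared in ChIP-seq, a method that sequences the DNA pulled down with an antibody. These were RXRα ChIP, RARα ChIP (a Santa Cruz antibody) and input chromatin, with 1 library each, so no value has a replicate check and no test between groups was possible. The deposited tracks held 9.99994 M RXRα reads and 9.99929 M input reads, of which 0.261% and 3.64% lay on the mitochondrial chromosome. The RXRα total is below the number of mapped reads given in the study's text, so the counts and their intervals hold for the deposited tracks. For RARα the depth is not known from the peak list used here, which holds 143280 peaks, 32946 of them with a score over 20. Of a list of liver genes 6 of 6 had an RXRα region within 10 kb and of a list of neuronal genes 0 of 6, although 2 neuronal genes had a RARα peak. Binding at a gene is not its expression, which was not analysed here.

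LXR is the receptor for oxysterols, the oxidised forms of cholesterol. It binds DNA as a heterodimer with RXR, usually at a direct repeat of the hexamer AGGTCA spaced by 4 bases, known as DR4, and its targets in liver carry cholesterol out of cells, send it into bile and switch on fatty acid synthesis. RXR also pairs with RAR, the receptor for retinoic acid, and with many other nuclear receptors. An RXRα read at a gene therefore does not tell which partner was there. LXR itself was not measured in these libraries.

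The sequences under the RXRα signal are shown first, because 3 of the 9 genes shared an almost identical DR4 there. The search used lists of degenerate hexamers that were written with published LXR elements known, so a match to such an element is not independent evidence. The first hexamer was AGGTCA or GGGTCA, or with other letters AGTTCA or GGTTCA, and each of these also with T in place of C, as in GGGTTA. The second hexamer was AGGTCA or CGGTCA or GGGTCA, or with T in place of the G before T AGTTCA or CGTTCA or GGTTCA. Both strands were searched. In windows of 201 bp around the RXRα maxima, 5 of 74 regions of the 9 genes held such a repeat, or 6.76%, beside 0.67% of all 42117 RXRα regions in the genome. Around the summits of their RARα peaks with a score over 20, 2 of 36 windows held it, or 5.56%, beside 0.176% of 32946. Both of these windows were at Abca1. In narrower windows of 101 bp the repeat was in 3 of the 74 RXRα regions, or 4.05% beside 0.411% of all regions, and in 0 of the 36 RARα windows, beside 0.0698% of all RARα peaks over 20. In promoters of all genes, taken as windows of 300 bp, the share was 0.112%. The 5 repeats lay at Abca1, Abcg1 and Srebf1, most of them at Abca1, so these shares rest on few genes. All 5 read GGGTTA and CGGTCA, and they differed from each other only in the spacer. The plus strand of NCBI37/mm9 is printed here with both hexamers in capitals, for the 4 elements with the most RXRα signal over input in 101 bases and for the last in its own length.
Abca1, upstream of the start, chr4:53172777-53172877: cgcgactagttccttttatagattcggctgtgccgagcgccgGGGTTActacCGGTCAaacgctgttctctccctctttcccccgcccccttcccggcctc
Abca1, intron near the start, chr4:53171702-53171802: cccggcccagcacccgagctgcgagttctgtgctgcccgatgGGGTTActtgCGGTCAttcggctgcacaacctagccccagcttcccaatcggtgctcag
Srebf1, upstream of a coding start, chr11:60024098-60024198: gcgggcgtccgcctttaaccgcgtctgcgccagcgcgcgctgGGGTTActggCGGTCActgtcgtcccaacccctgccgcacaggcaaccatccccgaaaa
Abcg1, intron, chr17:31210388-31210488: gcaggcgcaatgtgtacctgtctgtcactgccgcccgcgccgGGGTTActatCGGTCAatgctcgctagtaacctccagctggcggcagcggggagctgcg
Abca1, intron far from the start, chr4:53128862-53128877: GGGTTActctCGGTCA

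Abca1 and Srebf1 are transcribed from the minus strand, so their elements were read against the direction of transcription, and that of Abcg1 along it. In the bin with the highest ratio over input within 100 bp of each element, the RXRα signal, which is the number of reads covering 32 bp, was 68, 74, 49, 26 and 38 in the order printed, and the input signal in the same bins was 1, 1, 0, 0 and 1. All further signals of RXRα regions are given in this way, for the bin where the ratio was highest, which is not always the tallest bin. RARα was uneven over them. The highest RARα score over the element was 124, 60 and 17 for the first 3 and 10 for the last, and no RARα peak of any score covered the element in Abcg1.

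Repeats made only of AGGTCA or GGGTCA and of AGTTCA or GGTTCA were almost lacking, and part of the degenerate list is shared with them. With spacings of 1, 3, 4 and 5 bases, 0 of 74 RXRα regions of the 9 genes held one, and with a spacing of 2 bases 1 region in Abca1 did. Such repeats were also rare in all RXRα regions, from 0.271% for a spacing of 3 to 1.33% for a spacing of 1. A DR4 of AGGTCA with up to 2 mismatches was found in 5.41% of the 74 regions beside 6.37% of all regions, a share near the background. GGGTTA paired with CGGTCA has more than 2 mismatches, so this search cannot find the printed elements. Near the start of Abcg1 an element with up to 2 mismatches lay under the RXRα maximum, on the minus strand at chr17:31195826-31195841, and read AGGTAActgtCGGTCA. Other elements of this kind lay in RXRα regions at Abca1, at Scarb1 and in a region shared by Abcg5 and Abcg8.

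The search was then extended to every repeat in the genome, a step chosen after the data were seen. The genome held 15503 repeats of the degenerate lists, of which 37 paired GGGTTA with CGGTCA. An RXRα ratio of 20 or more over input lay within 100 bp of 10 of these 37, or 27.0%, beside 440 of 15466 for all other pairs, or 2.84%. The 5 elements at Abca1, Abcg1 and Srebf1 were 5 of the 10, and since they had led to this pair of hexamers, the share is also given without them, as 5 of 32, or 15.6%. Of the other elements, named after their values were seen, the highest lay at -586 bp from the start of Fasn, the fatty acid synthase, with an RXRα signal of 74 over 0. Another 3 had as nearest genes Scd1, Scd2 and Scd3, which encode stearoyl-CoA desaturases, with signals of 57 over 1, 32 over 0 and 26 over 0, at distances of 19019, -9425 and 45033 bp from their starts, where a minus sign is upstream. The last had AI427809 as its nearest gene, at -1440 bp from its start, with 25 over 0. It lay at chr4:53276852-53276867, on the same chromosome as Abca1, whose start is at 53172767. The 3 elements nearest to Scd1, Scd2 and Scd3 lay together on chromosome 19, between 44322785 and 44463188. The 5 of 32 are therefore not 5 separate loci. Within the windows and bodies of the 9 genes, the 5 other degenerate repeats had ratios between 7.0 and 19.9 and none reached 20. Among repeats of the genome within 10 kb of a gene start, the background was higher. A ratio of 20 or more lay at 126 of 2355 other pairs, or 5.35%. For GGGTTA with CGGTCA it lay at 5 of 14, or 35.7%, with elements at Abca1 among these 5.
At Fasn, chr11:120686071-120686086: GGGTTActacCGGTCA
Nearest to Scd1, chr19:44463173-44463188: GGGTTAttctCGGTCA
Nearest to Scd2, chr19:44358734-44358749: GGGTTActctCGGTCA

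All 9 genes had a RARα peak with a score over 20 within 10 kb of the gene start, beside 52.2% of all protein-coding genes. All 9 also had an RXRα region there, which is a stretch of bins with at least 20 times the input signal, beside 39.8% of all genes. At 8 of the 9 a RARα peak overlapped an RXRα region by 25% or more of the narrower interval, here called co-localized, beside 23.5% of all genes. The exception was Abcg1. When gene bodies were added, the counts stayed at 9, 9 and 8, and those of all genes became 57.9%, 47.9% and 27.2%. The plot of coverage around the gene starts shows that the RXRα signal stood in narrow peaks over a low input.

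**Figure D1:**
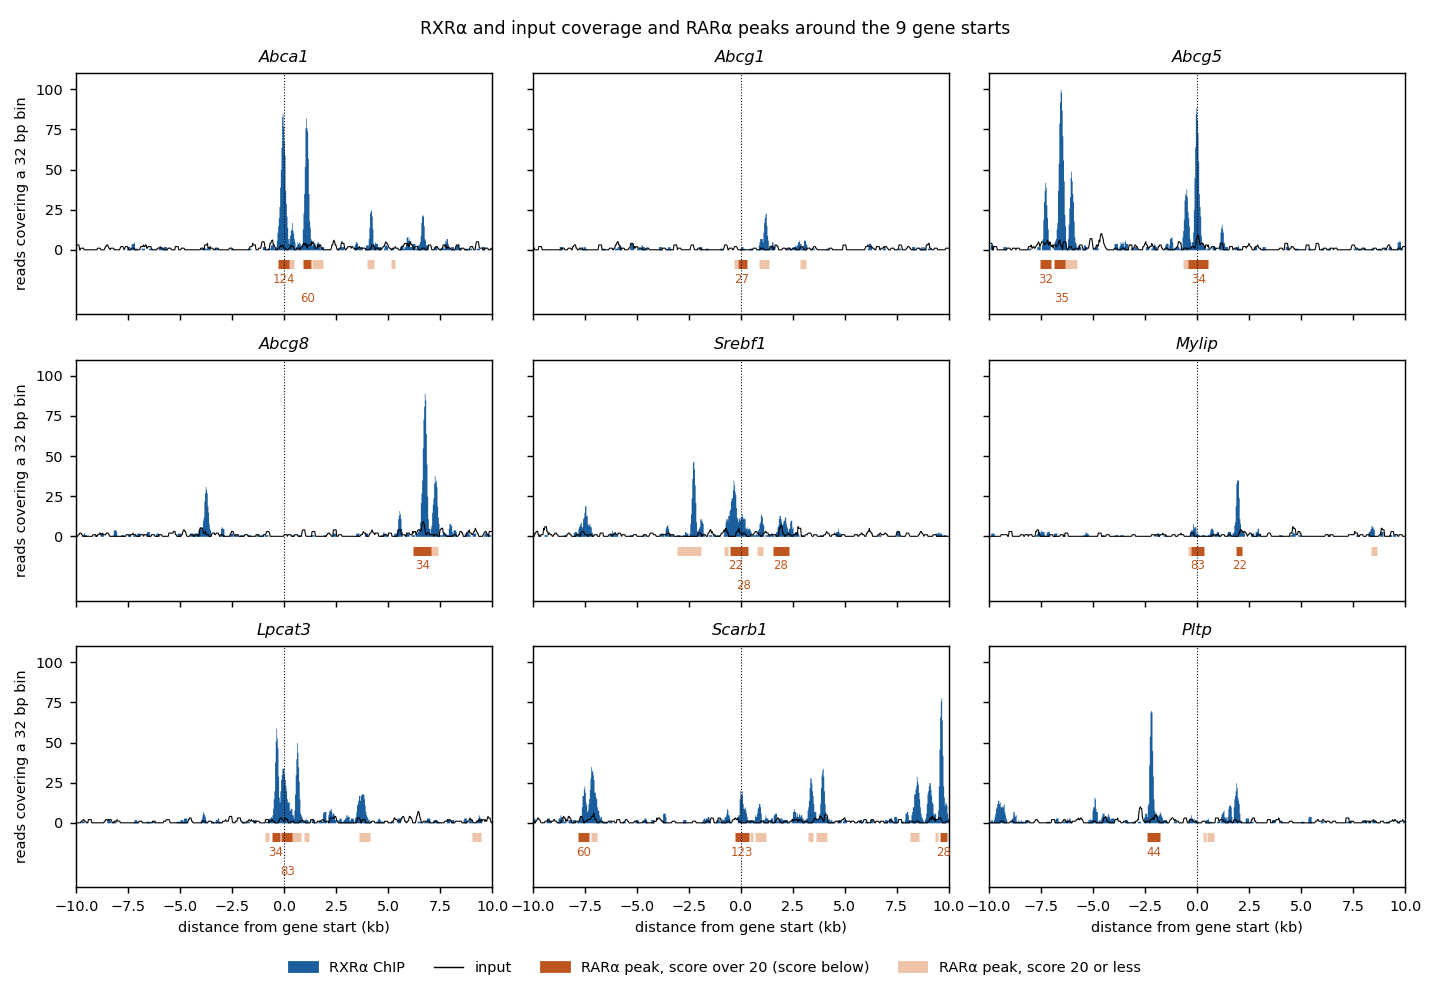
Coverage of the RXRα library (blue) and input (black line) in reads per 32 bp bin against distance from the gene start in kb, along the direction of transcription, with RARα peaks as bars below and the scores of those over 20. RXRα peaks lie at and near the start at Abca1 and Lpcat3 and away from it at Abcg8 and Pltp, and Abcg1 has a single RXRα region, with a signal of 23.

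The highest RXRα ratio over input within 10 kb ranged from 38.2 at Abcg1 to 118 at Abcg5 with a median of 74.0. The median was 14.9 over all genes and 27.0 over the genes with a RARα peak, and all 9 genes lay above both. Their order was Abcg5 with 118, Lpcat3 with 97.9, Pltp with 89.6, Srebf1 with 78.0, Abca1 with 74.0, Scarb1 with 69.7, Abcg8 with 64.0, Mylip with 58.1 and Abcg1 with 38.2. These ratios rest on 23 to 74 RXRα reads over 0 or 1 input read, and with input set to its genome mean of 0.603 where it was lower. A single read over an empty input bin gives 1.66. The order depended on how input was treated. With the local mean over 1 kb as input, Lpcat3 was highest with 81.6, while Abcg5 had 35.7, Abcg1 31, Abcg8 29.3 and Mylip 27.1. With the genome mean as the only input, Abcg5 had 166, Abcg8 148, Lpcat3 97.9 and Abcg1 38.2. The printed order therefore holds only for the main treatment of input, at its upper end as well as between neighbours. In the 20 kb window the 9 genes had a median of 117 input reads, beside 80.8 for all genes and 104 for genes with a RARα peak. These totals do not describe the bins that gave the highest ratios, where input was 0 or 1.

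**Figure D2:**
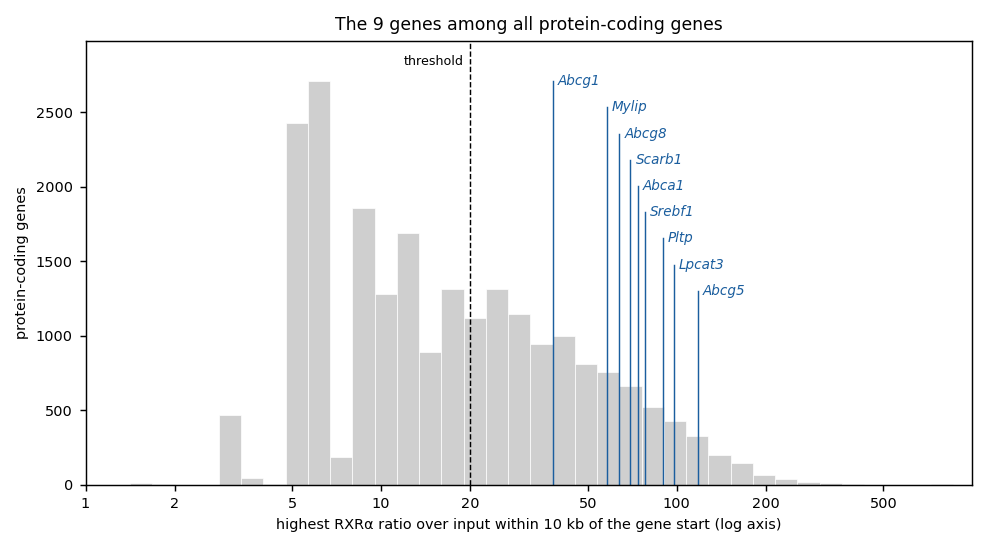
Number of protein-coding genes (y axis) by their highest RXRα ratio over input within 10 kb of the gene start (x axis, log scale), with the 9 genes as blue lines and the threshold of 20 dashed. The 9 genes lie between 38.2 and 118, and the median of all genes is 14.9.

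A window of 20 kb, 10 kb on each side of the start, gives a steadier measure since it holds more reads. The ratio of RXRα to input reads was at least 2 at 7 of the 9 genes, beside 20.8% of all genes, and the exceptions were Abcg1 and Mylip. The median was 2.94 for the 9 genes, 1.09 for all genes and 1.58 for genes with a RARα peak. Within 1 kb of the start the ratio was at least 5 at 5 of the 9, beside 12.8% of the 22174 genes with input reads there. The 5 were Abca1, Abcg5, Srebf1, Lpcat3 and Scarb1. All intervals given for these ratios are exact 95% intervals that cover counting error only.

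**Figure D3:**
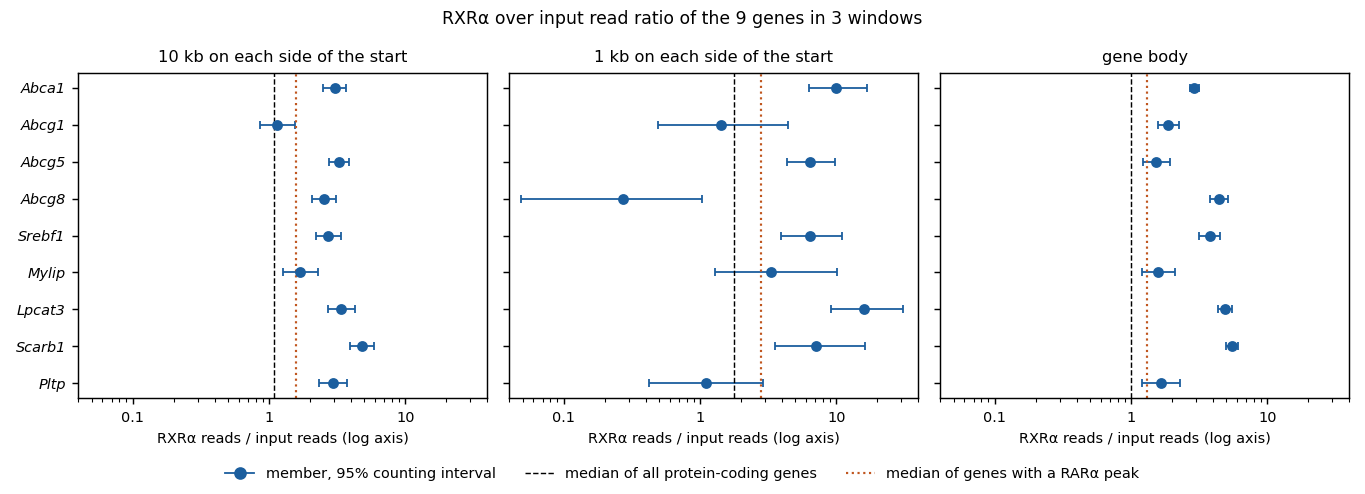
RXRα reads over input reads (x axis, log scale) for the 9 genes in 3 windows, with exact 95% counting intervals, the median of all genes dashed and that of genes with a RARα peak dotted. Scarb1 is highest over 10 kb with 4.80, Lpcat3 within 1 kb with 16.1, and Abcg8 falls to 0.273 within 1 kb of its annotated start.

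Abca1 (ENSMUSG00000015243.4, chr4:53043659-53172767, minus strand) encodes the transporter that loads cholesterol and phospholipid onto lipid-poor apolipoprotein A1. In its 20 kb window lay 442.4 RXRα and 146 input reads, which is a ratio of 3.03 (95% interval 2.51 to 3.68). Of these RXRα reads 45.3% lay within 1 kb of the start, beside 13.8% of the input reads, and the ratio there was 9.999 (6.30 to 16.7). The RARα peak over the start, with its summit in the untranslated region, had a score of 124, the highest among the 9 genes. It spanned the first printed element, and its RXRα region had 68 reads over 1. A second RARα peak, with a score of 60, lay 1102 bp into the gene over the second printed element, where RXRα had 74 over 1. The signal went on through the body, with 20 RXRα regions and 70 RARα peaks of any score over 129.109 kb. Body and window overlap in the part that lies downstream of the start. The strongest region of the gene was intronic, 15567 bp from the start, with a ratio of 114 (69 reads over 0) and a RARα score of 38. Over the body RXRα had 20.7 reads per kb and input 7.12.

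Abcg1 (ENSMUSG00000024030.6, chr17:31194643-31252722, plus strand) encodes the transporter that passes cholesterol to mature high-density lipoprotein (HDL). Its 20 kb read ratio was the lowest of the 9, and so was its highest RXRα ratio, except that with the local mean over 1 kb as input Abcg8 and Mylip were lower. In its 20 kb window RXRα had 99 reads against 86 for input, and the interval of the ratio of 1.15, 0.854 to 1.56, includes 1. Over its body the ratio was 1.87 (1.57 to 2.25), with 353.6 over 189 reads. Its RARα peak over 20 lay at the start, with a score of 27, and the RXRα enrichment in it was only 1.19. Enrichment here is the mean RXRα signal over the mean input signal, with input raised to its genome mean where lower. This value rested on 2 RXRα reads and 0 input reads. The RXRα regions stood elsewhere. One was 1213 bp into the gene, with 23 reads over 0 and RARα scores of 8, and the others were 15773 and 46365 bp into it, with 26 and 34 reads over 0 and no RARα peak of any score. The former of the last pair holds the printed element, and the latter has the start of Tff3 as its nearest gene start.

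Abcg5 (ENSMUSG00000040505.6, chr17:85057574-85082351, minus strand) and Abcg8 (ENSMUSG00000024254.8, chr17:85075642-85099673, plus strand) encode the parts of 1 transporter that moves sterols from hepatocytes into bile. They are neighbours in opposite directions and share 5 of their RXRα regions, so their values are not independent. Around Abcg5 RXRα had 566 reads in the 20 kb window against 173.8 for input, so the ratio was 3.25 (2.74 to 3.88). Around Abcg8 the reads were 334 and 132 and the ratio 2.53 (2.06 to 3.12).

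The choice of gene start mattered at Abcg8. Its annotated gene start is that of the transcript Abcg8-002, and within 1 kb of it RXRα had 3 reads and input 10.6, so the ratio was 0.273 (0.0489 to 1.032). The transcript Abcg8-001 starts 6819 bp further on, beside the start of Abcg5, and within 1 kb of that start there were 193 RXRα and 30 input reads, a ratio of 6.43 (4.36 to 9.79). A RARα peak with a score of 34 covered the starts of both Abcg5 and Abcg8-001, with its summit 56 bp into Abcg5, and overlapped an RXRα region with 64 reads over 1. The strongest region of the pair was at -6465 bp from the start of Abcg5, in an intron of Abcg8, with 71 reads over 0 and a RARα score of 35. A further intronic region of Abcg8, 17622 bp from its gene start, had 178 reads over 2 with a RARα score of 23.

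Srebf1 (ENSMUSG00000020538.8, chr11:60012591-60036083, minus strand) encodes the regulator of fatty acid synthesis SREBP-1, whose 1a and 1c forms begin at different starts. Its 20 kb window held 332 RXRα and 122 input reads, a ratio of 2.72 (2.20 to 3.38). The gene start in the annotation is that of a noncoding transcript. The 1a form starts 1977 bp further on, with 57.6 RXRα and 22 input reads within 1 kb and a ratio of 2.64 (1.59 to 4.52). The 1c form, transcript Srebf1-007, starts 12116 bp from the gene start and so beyond the 10 kb window. Within 1 kb of it there were 214.2 RXRα reads over 16.6 input reads, a ratio of 12.6 (7.68 to 22.0). The 2 intervals do not overlap. The RARα peak at the 1c start had a score of 87, beside 28 for the best peak at the 1a start, and the printed element of Srebf1 lay upstream of it. Its RXRα maximum, 49 reads over 0, was 93 bp from the element. Other RXRα regions had 47 reads over 0 at -2269 bp from the gene start, with a RARα score of 14, and 58 over 0 in a coding exon 18339 bp into the gene, with a score of 15. At the 3′ end of the gene a RARα peak that scored 66 had an RXRα enrichment of 1.52 and no RXRα region.

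**Figure D4:**
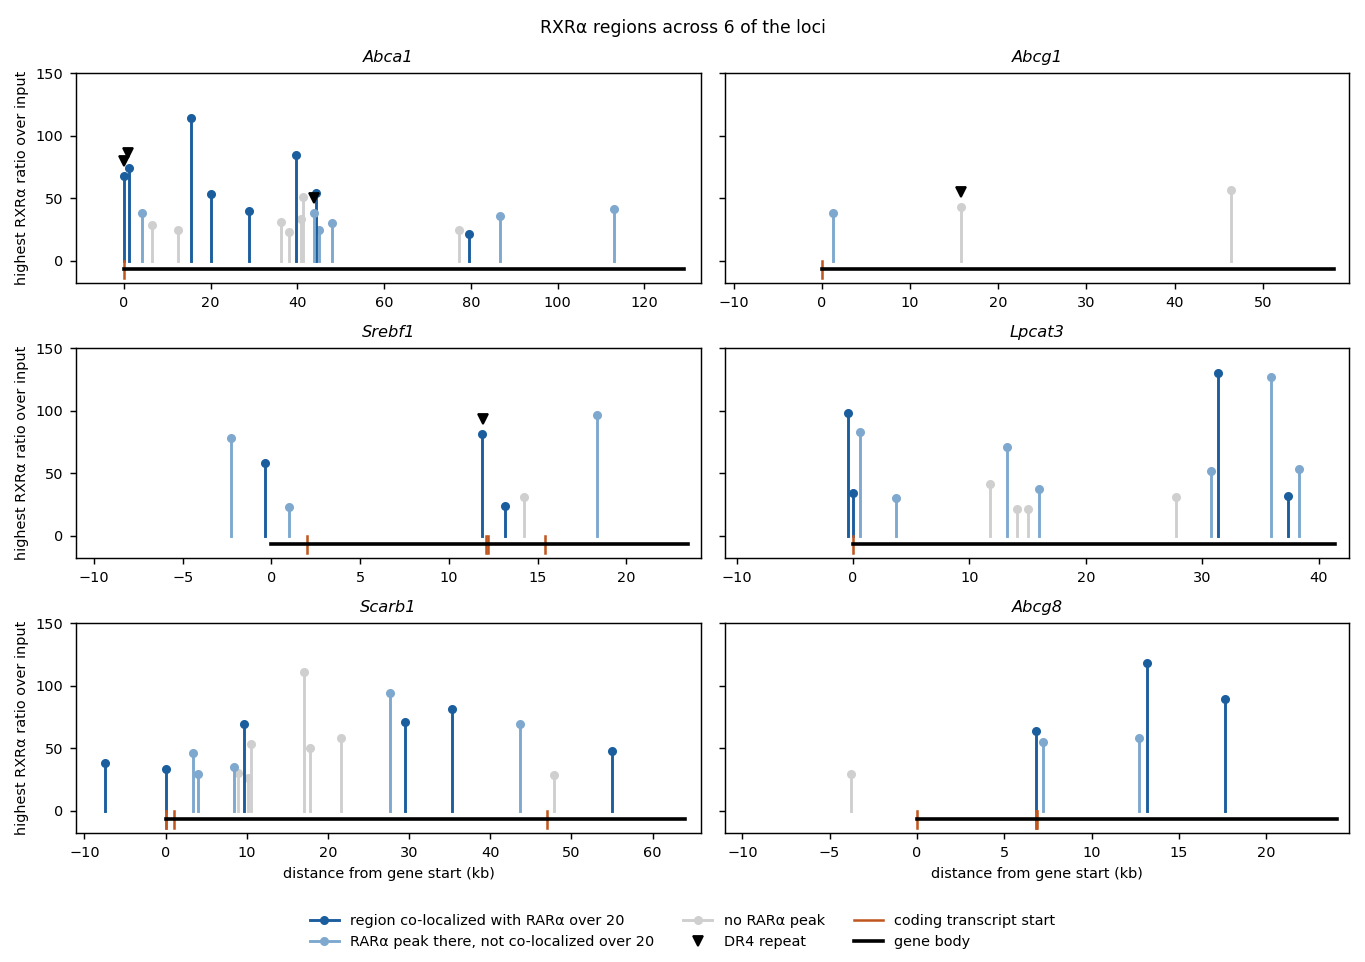
Highest RXRα ratio over input of each RXRα region (y axis) against distance from the gene start in kb for 6 of the genes, coloured by the RARα peaks there, with coding transcript starts in orange. Triangles mark only the DR4 elements with an RXRα ratio of 20 or more within 100 bp, and repeats below that are not drawn. In Srebf1 the region with the element and a ratio of 81.3 stands next to coding starts more than 10 kb into the gene.

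Mylip (ENSMUSG00000038175.9, chr13:45485111-45507388, plus strand) encodes the ligase, also called IDOL, that marks the LDL receptor for degradation. Its strongest RARα peak was not where RXRα was. This peak, at the start, had a score of 83 but an RXRα enrichment of only 2.30, with 5 RXRα reads and 0 input reads in the peak. The single RXRα region lay in an intron 1913 bp into the gene, with 35 reads over 0, and was co-localized with a RARα peak that had a score of 22. The 20 kb window held 124 RXRα and 73 input reads, a ratio of 1.70 (1.26 to 2.30).

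Lpcat3 (ENSMUSG00000004270.7, chr6:124613045-124654436, plus strand) encodes an acyltransferase that puts polyunsaturated fatty acids into phospholipids. Its RXRα signal was the most gathered at the start of the 9, where 58.6% of the RXRα reads of the 20 kb window lay within 1 kb, beside 12.4% of the input reads. The ratio within 1 kb was 16.1 (9.20 to 30.7), with 209 over 13 reads, rank 91 of 22174 genes. It was 3.39 (2.72 to 4.26) over the whole window, with 356.4 over 105 reads. An upstream RARα peak with a score of 34 and a start peak with a score of 83 were both co-localized with RXRα, with 59 reads over 0 and 34 over 1. Another region 603 bp into the gene had 50 over 0 but a RARα score of only 12. Far introns held the highest ratios among all sites of the 9 genes, 129.99 at 31387 bp (130 reads over 1) and 127 at 35899 bp (127 over 1), with RARα scores of 23 and 16. Both sites lie inside Lpcat3, but the nearest gene start is that of Emg1, at 17732 and 13236 bp.

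Scarb1 (ENSMUSG00000037936.9, chr5:125757457-125821464, minus strand) encodes the receptor SR-BI, through which the liver takes up cholesterol from HDL. It had the highest 20 kb ratio of the 9, 4.80 (3.93 to 5.91), with 562.2 RXRα over 117 input reads, within the top 2.05% of all genes. Only 11.3% of these RXRα reads lay within 1 kb of the start. The RARα peak there had a score of 123 and an RXRα region of 20 reads over 0. All 3 of its RARα peaks over 20 within 10 kb were co-localized, and the weakest in score, 28, had the highest RXRα enrichment of any RARα peak over 20 at the 9 genes, 39.1. That value rested on 70.4 RXRα and 1.8 input reads. The upstream RARα peak of Lpcat3, with a score of 34, was close to it with 38.8, from 69.8 and 1.8 reads. RXRα was spread over the body, with 17 regions and 40.1 reads per kb beside 7.25 for input. The strongest, 17000 bp into the gene, had 67 reads over 0 and no RARα peak.

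Pltp (ENSMUSG00000017754.7, chr2:164665018-164683211, minus strand) encodes the phospholipid transfer protein of plasma, which remodels HDL. Its start was nearly free of RXRα, with 10.6 over 10.2 reads within 1 kb, a ratio of 1.1 (0.424 to 2.89), and the best RARα score there was 10. The signal stood upstream instead. A RARα peak with a score of 44, at -2089 bp from the start, was co-localized with an RXRα region of 54 reads over 0. The 20 kb window held 290.8 over 98.8 reads, a ratio of 2.94 (2.33 to 3.73), and 3.65% of the RXRα reads lay within 1 kb of the start. In its body RXRα had 5.95 reads per kb, the lowest of the 9, beside 3.57 for input.

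Over all 9 genes there were 36 RARα peaks with a score over 20 and 74 RXRα regions, counting a shared site once. Of the RARα peaks 27 were co-localized with RXRα, or 75%, and of the 17 within 10 kb of a start 12 were, or 70.6%, beside 33.1% of all 18093 RARα peaks within 10 kb of a start. The median RXRα enrichment of the 17 was 10.7, beside 4.6 for all, and 13 of the 17 lay above that. Their scores were not higher, with a median of 34 beside 36. The summits of the 27 co-localized peaks lay a median of 64 bp from the RXRα maximum, and 25 of the 27 lay within 200 bp. The score did not separate the co-localized peaks from the others. The co-localized peaks had scores of 21 to 124 with a median of 29, and the 9 others scores of 24 to 83 with a median of 28.

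**Figure D5:**
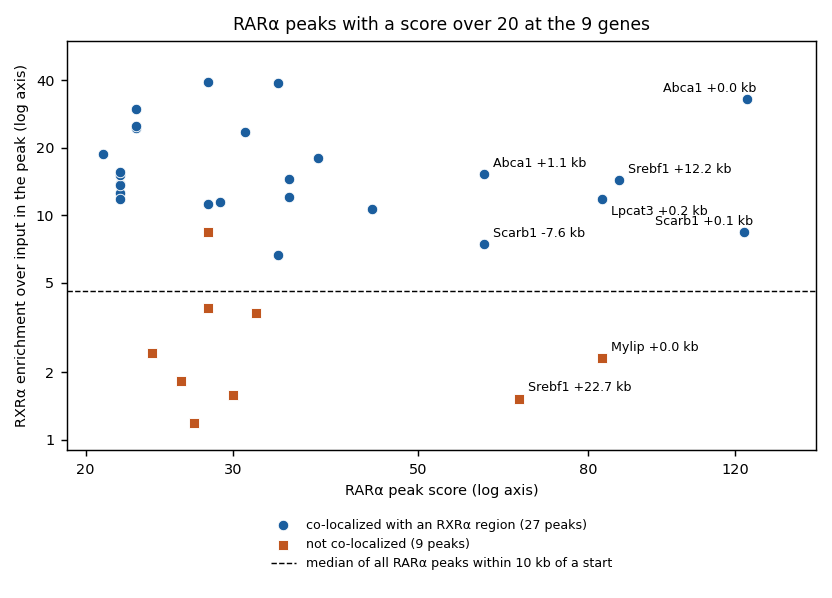
RXRα enrichment over input (y axis, log scale) against RARα score (x axis, log scale) for the 36 RARα peaks with a score over 20 at the 9 genes, co-localized peaks as blue circles and others as orange squares, with the median of all RARα peaks within 10 kb of a start dashed. Of the 8 peaks with a score over 50, 6 were co-localized, and those at the start of Mylip and at the 3′ end of Srebf1 were not.

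In the other direction, 26 of the 74 RXRα regions were co-localized with a RARα peak over 20, or 35.1%, beside 25.1% of all RXRα regions. Within 10 kb of a start the share was 42.9%, near the 39.4% of all such regions. Of the remainder, 24 had no RARα peak of any score and 24 had a RARα peak without being co-localized with one over 20. The median RXRα ratio was 66.0 in co-localized regions, 44.0 in those with another RARα peak and 30.4 in those with none, with ranges that overlapped widely. Most of the 74 regions, 57, were intronic, 11 lay upstream, 2 in untranslated regions, 2 in coding exons and 2 in noncoding exons. The RARα peaks were placed otherwise, with 19 in introns, 9 in untranslated regions, 6 upstream and 2 in noncoding exons. Places were not counted over all sites of the genome, nor was the share of introns in the searched sequence. These counts therefore only describe the sites of the 9 genes. In 47 of the 74 regions the input was 0 at the maximum.

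A list of 34 further genes of the LXR and sterol pathways was read in the same way. A RARα peak over 20 lay within 10 kb of 26 of the 34 starts, beside 52.2% of all genes, an RXRα region at 26, beside 39.8%, and a co-localized pair at 18, beside 23.5%. The 20 kb read ratio reached 2 at 19, beside 20.8%, and the median highest RXRα ratio was 63.5, beside 74.0 for the 9 genes. The highest ratios were 154 at the neighbours Apoc2 and Apoc4, which encode apolipoproteins C and share the bin, with 93 reads over 0, and 136 at Mlxipl, which encodes the glucose-responsive lipogenic factor ChREBP, with 136 reads over 1. The lowest were 6.64 at Npc1l1, the sterol importer of the intestine, 9.96 at Soat1, a cholesterol esterifying enzyme, and 11 at Abca2, a transporter known from brain. None of these last had an RXRα region within 10 kb, and of them only Abca2 had a RARα peak over 20, with a score of 37.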

How the data were processed

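The authors aligned the reads with Bowtie after base calling with CASAVA 1.4, as the submitters' processing notes list, and called RARα peaks with MACS. For RXRα and input they deposited a signal, the whole-number coverage in bins of 32 bp, where 1 read fills 5 bins. Reads were recovered as the summed signal divided by 5. The deposited RARα list gives a score per peak, from 5 to 382, whose meaning the list does not state, and the false discovery rate in percent, at most 4.75, which was not used as a filter. The methods of the study name mm10 for the alignment and mm9 for the annotation. The file headers name mm9, which was used here for coordinates and sequence.

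Scores over 20 for RARα, 10 kb as the distance, 20 times input and 25% overlap were taken from the methods of the study. RXRα and input were brought to an equal mean, input was taken as the larger of the bin and the genome mean, and bins within 200 bp were joined, which gave 42117 RXRα regions. RXRα regions were thus derived here from coverage, not from called peaks. A peak counted for every gene within the distance, and a gene start was the 5′ end of the gene. A maximum and a mean enrichment both depend on few input reads. The steps were tested on simulated data. The 9 genes and the lists were chosen with earlier results of these data known. The 9 genes are all named, with the 3 highest and the 3 lowest of the 34 pathway genes, and others where the text says so. Liver genes were Alb, Apoa2, Ttr, Ahsg, Fgb and Cps1, and neuronal genes Syt1, Snap25, Rbfox3, Gad1, Slc17a7 and Stmn2. Intervals are exact conditional binomial intervals on rounded reads and cover counting error only. No p-values were computed. Tools were Python 3.11.15, numpy 2.4.6, pandas 2.3.3, scipy 1.17.1, pysam 0.24.0 and matplotlib 3.10.9.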

Additional observations from a re-analysis of the deposited data

How the results depend on the processing

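No paired analysis was possible because each antibody has 1 library. For the same reason no library could be left out. With RARα scores over 50, 4 of the 9 genes kept a RARα peak (24.6% of all genes) and 3 a co-localized one (10.9%). Within 1 kb of the start, 5 had an RXRα region (21.6% of all genes) and 5 a co-localized peak (15.8%). The median highest RXRα ratio was 116 with mean input only and 38.7 with the local mean over 1 kb as input. The median read ratio was 6.37 within 1 kb, and that of Abcg8 fell below 1, to 0.273, at a start that other transcripts do not share. With AGGTCA repeats of up to 2 mismatches, 6 genes had a DR4 at a site in place of 3, and Srebf1 was no longer among them. GGGTTA paired with CGGTCA has more than 2 mismatches to such repeats. This search therefore could not find any of the 5 elements printed for Abca1, Abcg1 and Srebf1. Its matches at Abca1 and Abcg1 were other sites. Abcg5 and Abcg8 were counted through the same site. The repeat with up to 2 mismatches was in 5.41% of the RXRα regions of the 9 genes, beside 6.37% of all RXRα regions. In windows of 101 bp the genes with a degenerate DR4 were 2, the RXRα regions with it 3 in place of 5, and the RARα peaks 0 in place of 2. Other thresholds, distances, overlaps, starts and scalings kept the counts of RARα-bound, RXRα-bound and co-localized genes among the 9 within 1.5 times. Shares of all genes moved more with the RXRα threshold. At 5 times input all 9 had an RXRα region, but so did 86.7% of all genes, and 47.7% had a co-localized peak. At 10 times input these shares were 60.2% and 38.9%, and at 30 times 27.9% and 14.9%. Abcg8 lost its RARα and co-localized peaks at a distance of 5 kb and with peaks counted only for their nearest start. Its only RARα peak over 20 within 10 kb has its summit 6653 bp from its gene start, and the nearest start to that summit is that of Abcg5. The cause of the other shifts was not tested. The genome-wide search for repeats, with and without the elements at the 9 genes, and the counts with mean input only and with unscaled tracks, were chosen after seeing the data. Ratios rest on 0 or 1 input read in most regions, and the RARα library has no input of its own here.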
